A study of Mus musculus with 14 samples.

Results

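The extracellular matrix of the mammary gland is cut by secreted and membrane-bound metalloproteinases, whose activity is held back by tissue inhibitors of metalloproteinases (TIMPs). The 10 genes described here were 4 ADAMTS proteases (Adamts1, Adamts4, Adamts5 and Adamts9), 3 matrix metalloproteinases (Mmp2, Mmp3 and Mmp12) and 3 inhibitors (Timp1, Timp2 and Timp3), out of 18193 genes with a probe set of their own on the array. They were chosen by name, with earlier results of these data known. The shares of members called that are given below therefore describe this list and are no test of it. Each gene was read from the probe set with the highest mean level over the 14 arrays among those annotated with that symbol alone. In all 25 probe sets carried these symbols. Of the 10 genes, 6 had several probe sets and 4 had 1. The mean level of all 10 chosen probe sets lay above 6.65 on the log2 scale, the 40th percentile of mean level, below which a probe set was called dim. Among the other probe sets 1 of Adamts5 and 1 of Timp2 were dim. The shares of all probe sets given below include dim and unnamed ones, so they are not matched to the members in level.

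The mice were female, of the C57BL/6 strain, 11 to 12 weeks old on arrival, and were kept for 1 week before the experiment. In all groups, controls included, the ovaries were removed 7 days before treatment. Mice received vehicle, the estrogen E2 (estradiol, 1 subcutaneous injection, 0.05 mg per mouse as the labels write it), a blocker of estrogen receptors, or E2 and a blocker together, and the glands were taken 3 h later. The blockers were acolbifene, raloxifene and tamoxifen, which are nonsteroidal, and fulvestrant, which is steroidal. There were 10 groups: 4 with 2 arrays (vehicle, E2, acolbifene, E2+acolbifene) and 6 with 1 array (fulvestrant, raloxifene and tamoxifen, each alone and with E2). Each group was a pool of glands from 8 mice. Both arrays of a replicated group carry the same sample code in the names of their raw files, and the labels do not say that they came from separate pools, so the p-values reflect the spread among arrays alone, and that spread may be technical.

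ADAMTS1, ADAMTS4, ADAMTS5 and ADAMTS9 cleave the large chondroitin sulfate proteoglycans aggrecan and versican, which fill the space between cells together with hyaluronan. MMP2 (gelatinase A) digests denatured and basement membrane collagen, MMP3 (stromelysin-1) cuts many matrix proteins and activates other proenzymes, and MMP12 (macrophage metalloelastase) cuts elastin and is made largely by macrophages. TIMP1 and TIMP2 are soluble inhibitors of most metalloproteinases, TIMP2 also takes part in the activation of proMMP2 at the cell surface, and TIMP3 is bound to the matrix and inhibits ADAMTS proteases as well. In the mammary gland these enzymes and inhibitors are known for their part in duct branching and in the regression of the gland after weaning.

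RefSeq entries for the promoters of 7 members (8 windows, since Mmp12 has a pair of starts) were read on mouse build GRCm38.p6; no promoter of Adamts4, Adamts5 or Mmp2 is shown. The 250 bases before the start are printed for Adamts1, the member that moved most with E2, and for Mmp12, Timp1 and Mmp3, the members that separated the blocker groups most or moved with them. Capitals mark the matches to the motifs that were searched on both strands.
Adamts1 (chr16:85803114-85803363, minus strand): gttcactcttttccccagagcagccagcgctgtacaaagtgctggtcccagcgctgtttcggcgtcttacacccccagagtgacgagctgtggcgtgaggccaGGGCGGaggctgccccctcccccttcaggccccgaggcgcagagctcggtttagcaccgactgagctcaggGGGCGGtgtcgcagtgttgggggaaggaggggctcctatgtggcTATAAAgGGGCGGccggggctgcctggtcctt
Mmp12 (chr9:7347124-7347373, plus strand, the downstream of its starts): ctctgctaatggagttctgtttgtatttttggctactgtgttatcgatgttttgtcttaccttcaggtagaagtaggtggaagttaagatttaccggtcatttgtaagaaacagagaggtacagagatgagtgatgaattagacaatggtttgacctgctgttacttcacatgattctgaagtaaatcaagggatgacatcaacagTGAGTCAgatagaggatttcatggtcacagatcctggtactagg
Mmp3 (chr9:7445572-7445821, plus strand): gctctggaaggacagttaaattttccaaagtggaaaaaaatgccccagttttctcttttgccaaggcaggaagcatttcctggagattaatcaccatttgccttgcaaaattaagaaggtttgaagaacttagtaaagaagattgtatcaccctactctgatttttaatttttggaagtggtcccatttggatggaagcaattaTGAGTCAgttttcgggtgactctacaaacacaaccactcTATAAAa
Timp1 (chrX:20869916-20870165, plus strand): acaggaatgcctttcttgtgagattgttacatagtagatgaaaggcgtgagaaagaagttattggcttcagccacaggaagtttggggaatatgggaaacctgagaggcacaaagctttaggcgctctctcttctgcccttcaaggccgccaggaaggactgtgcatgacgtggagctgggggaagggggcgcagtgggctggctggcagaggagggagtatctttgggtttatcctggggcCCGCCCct

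The motifs were the estrogen response element (GGTCA, any 3 bases, TGACC), the AP-1 site TGANTCA, the cyclic AMP response element TGACGTCA, the glucocorticoid or progesterone response element ACANNNTGT, the TATA box TATAAA and the GC box GGGCGG, and no match overlapped another. Adamts1 held a TATA box at positions -32 to -27 from the start and 3 GC boxes, the first base of which lay at -147, -76 and -25. Mmp12 and Mmp3 each held the AP-1 sequence TGAGTCA, at -44 to -38 and at -46 to -40, and Mmp3 also held TATAAA at -7 to -2. The window of the upstream Mmp12 start held no match. Timp1 held a GC box on the other strand at -8 to -3, and Timp2, Timp3 and Adamts9, not printed, held 1 GC box each. Of 32851 RefSeq promoter windows of the same length 6.75% held an AP-1 match, 12.4% a TATA box and 32.7% a GC box. No window of a member held the estrogen response element, the cyclic AMP response element or ACANNNTGT, which 0.0639%, 1.55% and 5.84% of all windows held. These matches describe letters in a window and say nothing of what binds there.

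Levels were log2 values made with RMA, and the median over all probe sets lay between 7.16 and 7.23 on the 14 arrays. The raw file names carry the code R136 on 7 arrays (E2 array 1 and all 6 single arrays) and R137 on the other 7, and what these codes stand for is not stated. Hybridization spikes averaged 10.09 to 10.32 on the 8 arrays of E2 and of the single groups and 10.47 to 10.64 on the 6 arrays of vehicle, acolbifene and E2+acolbifene. The array labelled raloxifene and both E2+acolbifene arrays carry the same sample code in their raw file names, 3 arrays with 1 code, which the labels do not explain. Markers of the gland were present: of the markers looked for, 8 of 9 luminal, 8 of 8 basal, 7 of 8 adipocyte, 12 of 12 fibroblast and 12 of 12 macrophage genes were measured and none was dim. All 10 skeletal muscle markers were measured too, and their median difference from vehicle ran from -1.50 (E2+raloxifene) to 0.71 (fulvestrant) on the log2 scale.

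The members differed most in how far they moved. Mmp12 had the widest range of group means, 1.57 on the log2 scale, followed by Adamts1 with 1.47, Timp1 with 1.23 and Adamts5 with 1.07. Mmp3 spanned 0.68, Adamts4 0.59, Mmp2 0.49, Timp3 0.40, Timp2 0.38 and Adamts9 0.33. The lowest mean was that of vehicle for Adamts1, Adamts4, Adamts9 and Mmp12, and that of E2+tamoxifen for Adamts5, Mmp2, Mmp3 and Timp1. Adamts1 was the only member whose level on all 12 arrays of the other groups lay above both vehicle arrays by more than 0.25, 1 of 10 members against 0.236% of 18193 genes that lay apart from vehicle in this way in either direction. With no margin, Adamts4 and Adamts9 also lay above both vehicle arrays on all 12, 3 of 10 members, where 6.76% of all genes lay apart in one direction or the other.

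**Figure D1:**
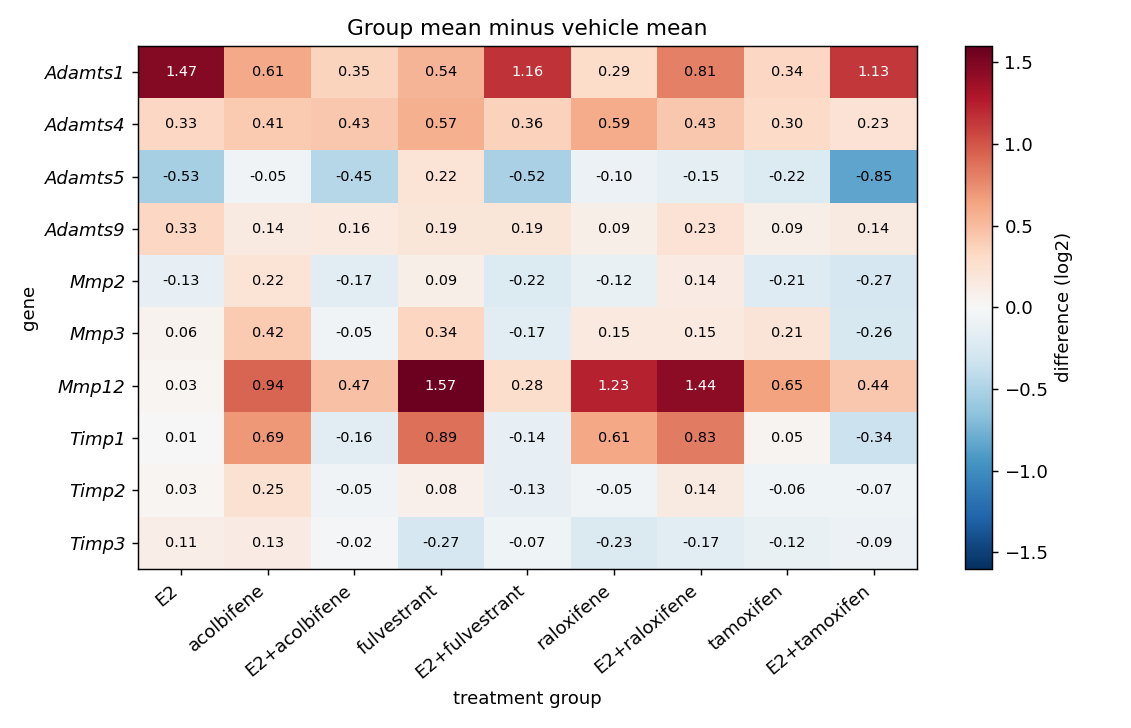
Difference of each group mean from the vehicle mean (log2, colour and printed value) for the 10 members (rows) in the 9 other treatment groups (columns); the 6 groups with fulvestrant, raloxifene or tamoxifen are single arrays. Adamts1 is highest with E2 (1.47), and Mmp12 is highest with fulvestrant (1.57), E2+raloxifene (1.44) and raloxifene (1.23).

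The first question was what E2 did alone. Adamts1 rose 2.77-fold and Adamts5 fell, while the 3 metalloproteinases and the 3 inhibitors did not pass the test. Adamts1 read 8.94 and 8.89 on the vehicle arrays and 10.31 and 10.46 on the E2 arrays, so the groups lay far apart. The difference was 1.47 ± 0.10 (log2, standard error, 2 arrays against 2), with an adjusted p of 1.48e-05 by limma. Adamts5 read 10.33 and 10.46 with vehicle and 9.77 and 9.97 with E2, and it fell by 0.53 ± 0.10 (adjusted p = 0.0141, limma). These were 2 of 10 members against 3.74% of all probe sets called in this comparison. The median member differed by 0.05 and the median gene by -0.02. Adamts9, with 9.59 and 9.76 against 9.97 and 10.04, differed by 0.33 (adjusted p = 0.0761, limma). Adamts4, with 7.63 and 7.76 against 8.02 and 8.04, also differed by 0.33 (adjusted p = 0.148), and neither passed. For Mmp12 the 95% interval of the difference was -0.18 to 0.24, for Timp1 -0.23 to 0.25 and for Mmp3 -0.14 to 0.26.

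The E2 arrays also differed from the vehicle arrays in spikes (10.29 and 10.32 against 10.60 and 10.58) and in the difference of the Actb control probe sets at the 3' and 5' ends (0.41 and 0.43 against 0.28 and 0.24), and this split and the effect of E2 on a gene cannot be told apart. Since both E2+acolbifene arrays lay on the vehicle side of it, the same holds for E2+acolbifene against E2 and for the interaction of E2 and acolbifene described further on. The Adamts5 call was lost without vehicle replicate 2 (-0.46, adjusted p = 0.0877, limma), without E2 replicate 1 and with a term for the raw-file code (both -0.43, adjusted p = 0.113), while Adamts1 kept its call in all 16 alternatives run. Cell type markers moved with E2 as well: of 8 basal markers Krt14, Krt5 and Trp63 rose, with a median difference of 0.30 and all 8 positive, Cd68 and Msr1 fell among 12 macrophage markers (median -0.14), and Cd79b and Ighm fell among 8 lymphocyte markers (median -0.18). Of 12 fibroblast markers Pdgfra rose and Pi16 fell (median -0.04), and of 7 adipocyte markers Lep fell (median -0.03). The skeletal muscle median was -0.91 on E2 array 1 and 0.46 on E2 array 2. The part of these cells in the Adamts1 and Adamts5 differences was not tested. These are bulk glands, in which fewer cells of a type and less RNA per cell cannot be told apart.

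**Figure D2:**
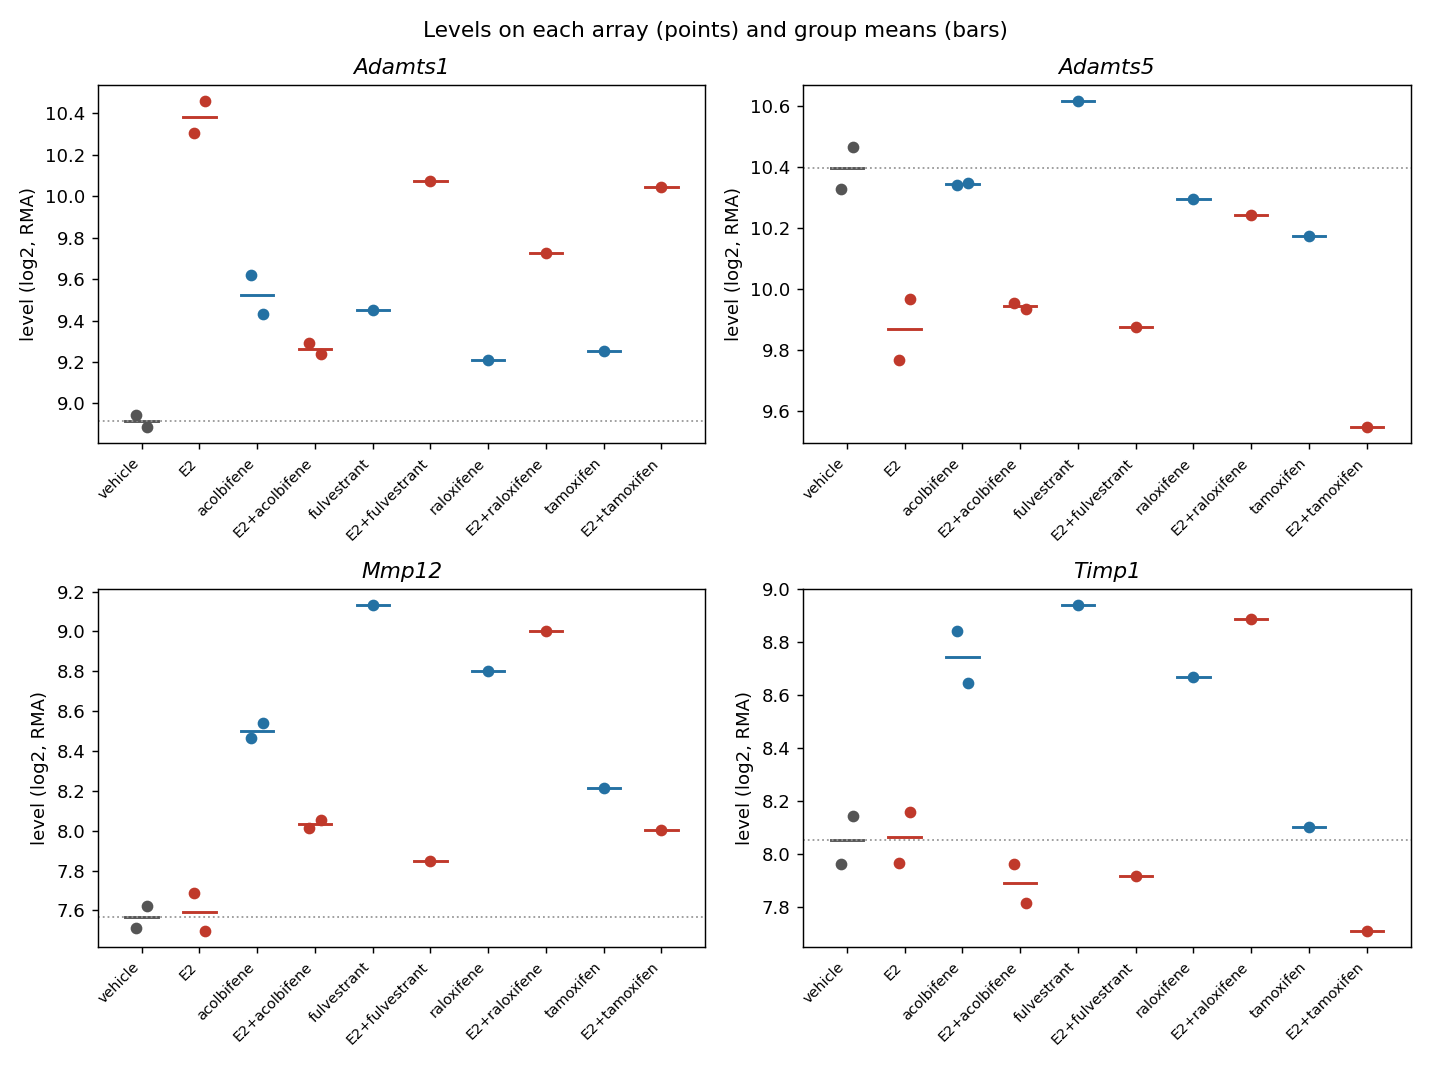
Levels (log2, RMA) of Adamts1, Adamts5, Mmp12 and Timp1 on each array (points) by treatment group, with the group mean as a bar and the vehicle mean as a dotted line; groups with E2 are red, blockers alone blue, vehicle grey. Adamts1 stands at 10.31 and 10.46 on the E2 arrays and below 10.1 on all others, whereas Mmp12 and Timp1 lie near vehicle with E2 and higher with acolbifene, fulvestrant, raloxifene and E2+raloxifene.

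Several probe sets of a gene did not always move alike under E2. For Adamts5 the 2 other bright probe sets fell by 0.56 (adjusted p = 0.0095, limma) and by 0.47 (adjusted p = 0.0185), close to the chosen one, and the dim one differed by -0.13. For Adamts4 the dimmer probe set, with 6.24 and 6.19 on the vehicle arrays and 6.86 and 7.31 on the E2 arrays, rose by 0.87 (adjusted p = 0.0087), more than the 0.33 of the chosen one. Its mean level of 6.73 lay just above the dim threshold. Timp2 disagreed most: the chosen probe set differed by 0.03, one of the other probe sets fell by 0.43 (adjusted p = 0.0205), and the 4 others differed by -0.30, -0.29, -0.17 and -0.11 without passing. No direction for Timp2 is therefore given for E2. The remaining probe sets of Adamts9 differed by 0.35 and -0.07, that of Mmp2 by 0.03, and those of Timp3 by 0.04 to 0.10, all without passing.

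**Figure D3:**
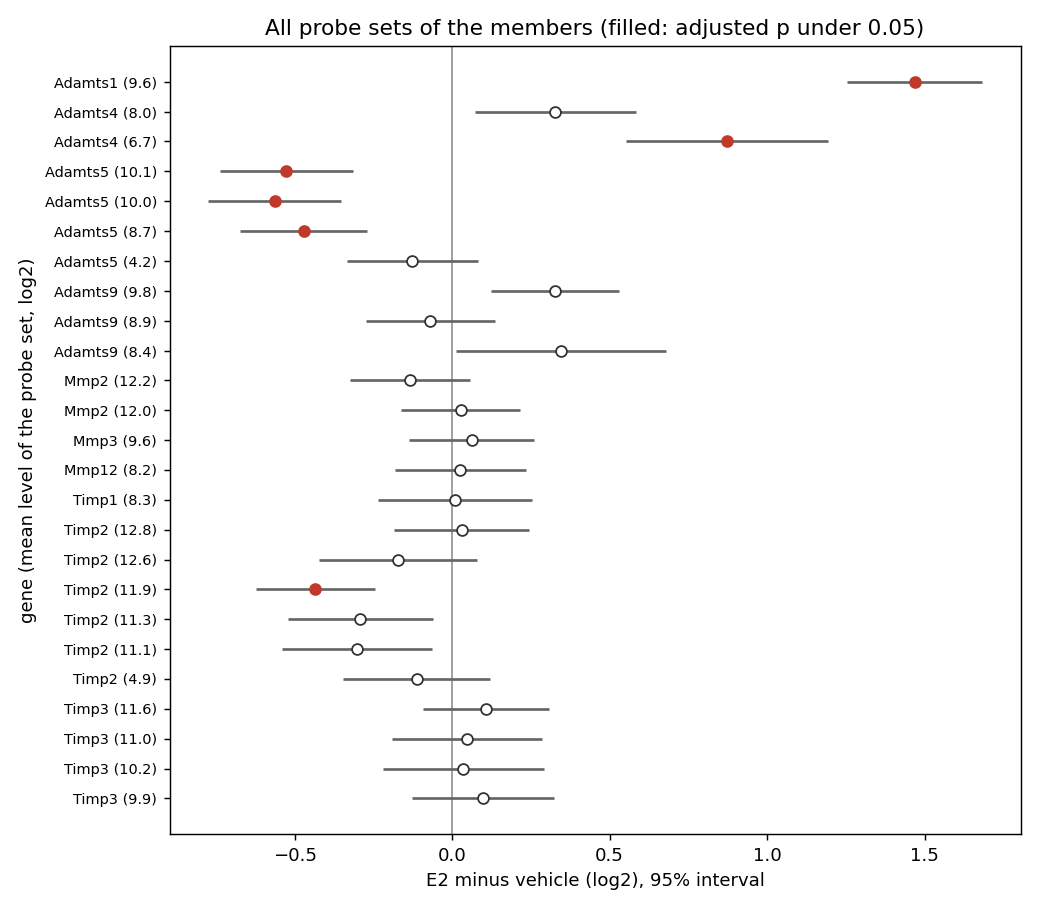
E2 minus vehicle (log2, with the 95% interval from limma) for all 25 probe sets of the 10 members, with the mean level of each probe set in brackets; filled points passed at an adjusted p under 0.05. The 3 bright Adamts5 probe sets lie between -0.56 and -0.47, while the 6 Timp2 probe sets spread from -0.43 to 0.03.

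Some related genes also moved with E2, where 3.74% of all probe sets were called. Of 16 other ADAMTS and ADAMTS-like genes, Adamts15, another versican-cleaving protease, rose by 0.54 (adjusted p = 0.0103, limma), Adamts19 rose by 0.38 (adjusted p = 0.0396) at a dim mean level, and Adamtsl5, an ADAMTS-like protein without protease activity, fell by 0.47 (adjusted p = 0.0174). Of 14 other matrix metalloproteinases and of 13 other inhibitors and regulators none passed. The 16 genes of the versican and hyaluronan matrix had a median difference of 0.01. Among them Ptx3, the pentraxin that cross-links hyaluronan, rose by 1.49, nearly as much as Adamts1, and Ncan (neurocan, near the dim threshold) fell by 0.90. Of 9 ADAM proteases Adam33 fell by 0.45, and of 20 collagens, laminins and other substrates Eln (elastin) rose by 0.62.

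Acolbifene alone gave another set. Mmp12, Timp1 and Adamts1 rose, 3 of 10 members against 0.597% of all probe sets, and no member fell. Mmp12 read 7.51 and 7.62 with vehicle and 8.46 and 8.54 with acolbifene, a rise of 0.94 ± 0.10 (1.91-fold; adjusted p = 0.00198, limma). Timp1 read 7.96 and 8.14 against 8.84 and 8.64, a rise of 0.69 ± 0.11 (adjusted p = 0.0224), and Adamts1 read 9.62 and 9.43 with acolbifene, 0.61 ± 0.10 above vehicle (adjusted p = 0.0213). That the arrays of these 3 did not overlap follows largely from the calls and adds no support to them. Mmp3, with 9.54 and 9.49 against 9.99 and 9.89, differed by 0.42 (adjusted p = 0.0654) and did not pass, nor did Adamts4 (0.41, adjusted p = 0.134). Adamts5 differed by -0.05, with an interval of -0.26 to 0.16. The median member differed by 0.33 and the median gene by 0.03. The Timp1 and Adamts1 calls were lost without any 1 of the 4 arrays (vehicle replicate 1 or 2, acolbifene replicate 1 or 2), with an adjusted p of 0.0653 to 0.176 for Timp1 and 0.0543 to 0.154 for Adamts1, and the Mmp12 call was kept in all 16 alternatives run.

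Marker genes of macrophages and of fibroblasts were also higher on the acolbifene arrays. Of 12 macrophage markers 3 rose with acolbifene (Cd14, Cd163 and Itgam, surface receptors of myeloid cells) and none fell, and their median difference was 0.32. The summed macrophage marker level (linear scale) was 37555 and 38024 on the acolbifene arrays against 31283 and 31548 on the vehicle arrays, and none of the markers was dim. Of the 12 fibroblast markers none passed, with a median difference of 0.20 and sums of 82078 and 83789 against 69840 and 72468. Of 8 neutrophil markers Csf3r rose, and their median difference was -0.24. The part of these cells in the rise of Mmp12 and Timp1 was not tested. In the matrix lists Tnc (tenascin-C, a glycoprotein of remodelled matrix) rose by 0.98 (adjusted p = 0.0109, limma), as did Ptx3 by 0.78, Vcan (versican itself) by 0.66, and Tnfaip6, which transfers chains onto hyaluronan, by 0.54, while Ncan fell by 0.73. Adam12 rose by 0.68, and no other metalloproteinase, ADAMTS gene or inhibitor of the lists passed.

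When acolbifene was given with E2, Adamts1 read nearer to vehicle than to E2, and Mmp12 read between its vehicle and acolbifene levels. Against E2 alone Adamts1 fell by 1.12 ± 0.10 (adjusted p = 0.000626, limma), from 10.31 and 10.46 to 9.29 and 9.24. Mmp12 rose by 0.44 ± 0.10 against E2 alone (adjusted p = 0.035), from 7.69 and 7.50 to 8.02 and 8.05. These were 2 of 10 members against 3.66% of all probe sets. The Adamts1 call was kept in all 16 alternatives run. The Mmp12 call was lost without any 1 of the arrays E2 replicate 1, E2 replicate 2, E2+acolbifene replicate 1 or E2+acolbifene replicate 2 (adjusted p 0.0596 to 0.201), and also with a term for the raw-file code (adjusted p = 0.0596) and after quantile normalization (0.0531). The skeletal muscle median was 0.89 higher here, with Casq1 and Pygm called, and the macrophage median 0.01 with none called. Pdgfra fell among 12 fibroblast markers (median -0.0035) and Oxtr among 8 basal markers (median -0.21). The part of these cells was not tested. Among related genes Ptx3 fell by 1.12, Has2, a hyaluronan synthase, by 0.49 and Adamts15 by 0.55, Adamtsl5 rose by 0.37, and none of 14 other metalloproteinases or 13 other inhibitors passed.

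Against vehicle, E2+acolbifene gave 0 calls among the 10 members by limma, with 4 at an unadjusted p under 0.05, where 0.837% of all probe sets were called. Mmp12 lay 0.47 above vehicle (adjusted p = 0.0509) and Adamts5 0.45 below it (-0.45, adjusted p = 0.0585). Adamts5, at 9.95 and 9.93, stood on the E2 side, below both vehicle arrays. Adamts1 differed by 0.35 (adjusted p = 0.107), with an interval of 0.14 to 0.56. Both E2+acolbifene arrays lay above both vehicle arrays for Adamts1, Adamts4, Adamts9 and Mmp12. How many of all genes did so was not counted, so this describes the readings and is no support for a difference.

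The same arrays set against acolbifene alone show what E2 changed in its presence. Timp1, Mmp3, Mmp12, Mmp2 and Adamts5 fell, 5 of 10 members against 9.2% of all probe sets, and none rose. Counted by gene, 2109 of 18193 were called here, and 5632 of 27022 probe sets when the dim ones were left out. Timp1 went from 8.84 and 8.64 to 7.96 and 7.81, a fall of 0.85 ± 0.11 (adjusted p = 0.0056, limma), to readings at or below those of vehicle (7.96 and 8.14). Mmp3 went from 9.99 and 9.89 to 9.54 and 9.40 and fell by 0.47 (adjusted p = 0.0192), and Mmp12 fell by 0.47 as well (adjusted p = 0.0234). Mmp2 went from 12.49 and 12.47 to 12.14 and 12.03, a fall of 0.39 (adjusted p = 0.029), and its other probe set fell by 0.44 (adjusted p = 0.0208). Adamts5 fell by 0.40 (adjusted p = 0.0349). Adamts1 differed by -0.26 and did not pass (adjusted p = 0.104), the reverse in sign of its E2 effect without a blocker. The median member differed by -0.35 and the median gene by -0.04.

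These falls were sensitive to single arrays. The Timp1 call was lost without acolbifene replicate 1 (-0.76, adjusted p = 0.0526, limma) and without E2+acolbifene replicate 2 (-0.78, adjusted p = 0.0784). The calls of Mmp12, Mmp2 and Adamts5 were lost without any 1 of the 4 arrays, acolbifene replicate 1 or 2 or E2+acolbifene replicate 1 or 2 (adjusted p up to 0.132, 0.174 and 0.173), and that of Mmp3 without acolbifene replicate 1 or either E2+acolbifene array (up to 0.145). After quantile normalization Timp1 alone of the 5 remained called, with Mmp2 at -0.21 and Adamts5 at -0.21.

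Other genes of the matrix and of its cells fell in the same comparison. Over all probe sets 1587 were called higher and 2555 lower, but 661 higher and 480 lower after quantile normalization. The genes of the lists and the markers were not run in the alternatives. Of 20 substrates 8 fell, among them Tnc by 0.94, Bgn (biglycan) by 0.46 and the collagen I chains Col1a1 and Col1a2 by 0.37 and 0.41, and none rose. Of 13 other inhibitors and regulators 4 fell, Tfpi2, a serine protease inhibitor that also acts on metalloproteinases, by 0.42, Serping1 (C1 inhibitor) by 0.41, Fbln1 (fibulin-1, a cofactor of ADAMTS1) by 0.40, and Lrp1, the receptor that clears proteases and TIMPs, by 0.36. Of 16 genes of the versican and hyaluronan matrix Vcan, Tnfaip6, Ptx3 and Cd44 (the hyaluronan receptor) fell by 0.55, 0.66, 0.42 and 0.54, while Bcan (brevican) rose by 0.75. Adamts15 fell by 0.45, Adam9 by 0.45 and Adam17 by 0.36, and Mmp10 (stromelysin-2) rose by 0.46.

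Cell type markers moved there too. Of 12 macrophage markers 9 fell (Adgre1, C1qa, C1qb, Cd14, Cd163, Cd68, Fcgr1, Itgam and Lyz2) with a median of -0.49, and the summed level was 28086 and 28771 on the E2+acolbifene arrays against 37555 and 38024 with acolbifene alone. Of 12 fibroblast markers 5 fell (Col1a1, Col1a2, Fbln2, Mfap5 and Pi16) with a median of -0.28. Vwf fell among 8 endothelial markers (median -0.26) and Lep among 7 adipocyte markers (median -0.24), and no gene of these lists was higher. Some markers rose. Casq1 and Mylpf did so among 10 skeletal muscle markers, all 10 of which were higher (median 0.75, sums 17274 and 18652 against 10789 and 11280). Mpo and Ngp rose among 8 neutrophil markers, and Krt14 and Krt5 among 8 basal markers. The part of these cells in the falls of Mmp12, Timp1, Mmp2 and Mmp3 was not tested.

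Whether the E2 effect itself differed with and without acolbifene was tested as an interaction, in which a negative value means a lower E2 effect with acolbifene. It was negative for Adamts1 at -1.73 ± 0.14 (adjusted p = 0.000307, limma), for Timp1 at -0.86 ± 0.16 (adjusted p = 0.0186) and for Mmp3 at -0.54 ± 0.13 (adjusted p = 0.0424). The E2 arrays alone of these 8 had low spikes, so that split and the interaction cannot be told apart. The 3 called of 10 members stood against 4.47% of all probe sets, and 9 of 10 members had a negative value, Adamts5 (0.13) being the exception. For Adamts1 the E2 effect went from 1.47 without acolbifene to -0.26 with it, and for Timp1 from 0.01 to -0.85. Mmp12, at -0.49, did not pass (adjusted p = 0.0598). The dimmer Adamts4 probe set gave -0.92 (adjusted p = 0.0367), against -0.31 for the chosen one. Of the marker genes Cd14, Cd163 and Itgam (3 of 12 macrophage markers) were called negative. So were Trp63 (1 of 8 basal markers) and Pdgfra (1 of 12 fibroblast markers). Mpo and Ngp (2 of 8 neutrophil markers) were called positive. The part of all these markers was not tested. Among related genes Ptx3 gave -1.91, Tnc -1.01, Adamts15 -0.98, Vcan -0.96, Adam12 -0.70, Tfpi2 -0.63, Tnfaip6 -0.62, Cd44 -0.60, Adam9 -0.58 and Eln -0.55, all called, and Ncan gave 1.07. The Mmp3 call was lost without each of the 8 arrays in turn (vehicle, E2, acolbifene or E2+acolbifene, replicate 1 or 2; adjusted p 0.0525 to 0.145), with a term for the raw-file code (0.0846) and after quantile normalization (0.117), and the Timp1 call without vehicle replicate 1, E2 replicate 2, acolbifene replicate 1 or E2+acolbifene replicate 2 (0.0706 to 0.0807).

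**Figure D4:**
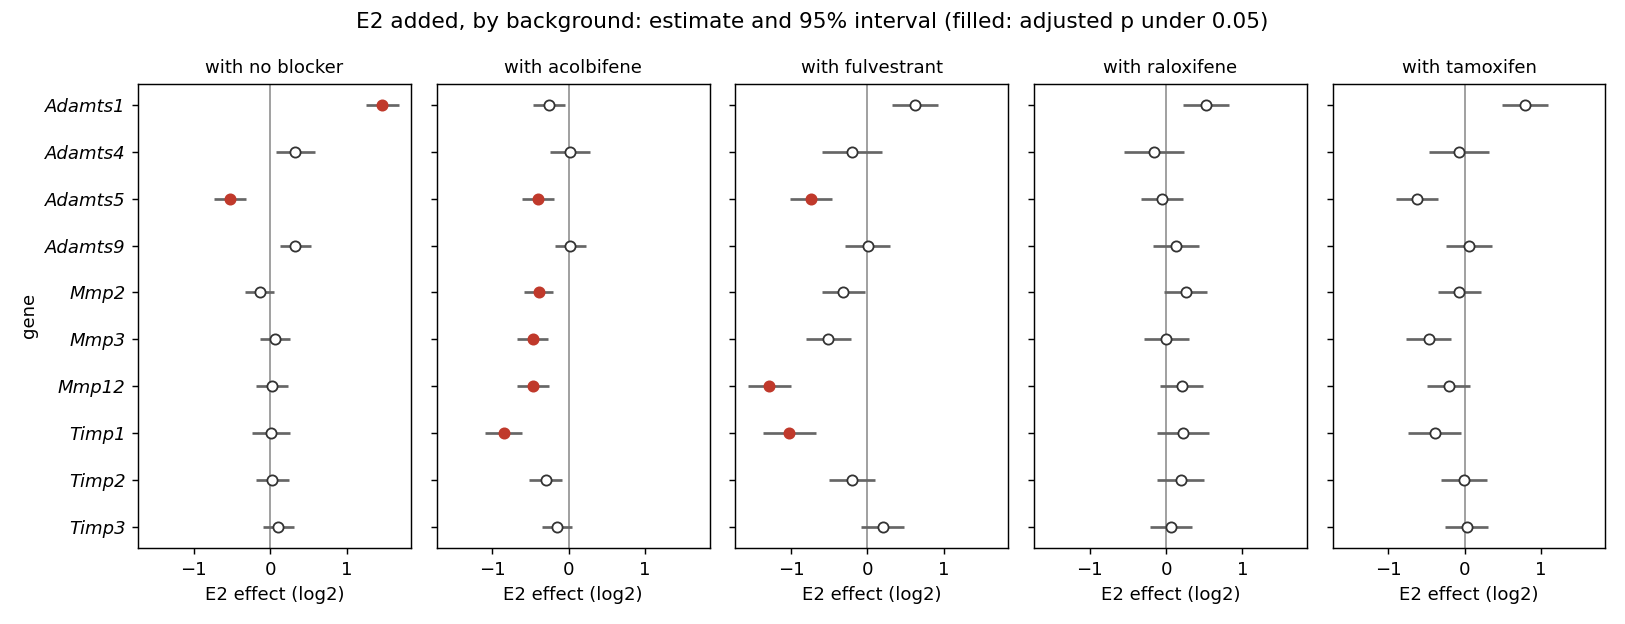
Effect of adding E2 (log2, with the 95% interval from limma) on the 10 members without a blocker and with each of the 4 blockers; filled points passed at an adjusted p under 0.05, and the 3 panels on the right compare 1 array with 1 array. Adamts1 is at 1.47 without a blocker and at -0.26 with acolbifene, and Mmp12 and Timp1 are at -1.29 and -1.02 with fulvestrant.

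The remaining blockers had 1 array each, so their tests assume that a single array varies like the replicated groups, and those against vehicle pass through the E2 pair, the only group with both raw-file codes. All 6 single arrays and both E2 arrays lay on the low side of the spike levels and vehicle on the high side, so the term for the code does not remove that split, and in each comparison of a single array with vehicle it cannot be told apart from the treatment. Mmp12 read 9.13 with fulvestrant, 8.80 with raloxifene and 8.21 with tamoxifen, all above both vehicle arrays (7.51 and 7.62). Against vehicle Mmp12 rose with fulvestrant by 1.37 ± 0.16 (adjusted p = 0.0121, limma; plain difference 1.57, 2.96-fold), the 1 called of 10 members against 0.153% of all probe sets. With raloxifene the fitted difference was 1.04 (adjusted p = 0.184; plain difference 1.23) and with tamoxifen 0.45 (adjusted p = 0.995; plain difference 0.65). Raloxifene and tamoxifen gave 0 calls among the members by limma, with 4 and 2 at an unadjusted p under 0.05, where 0.00888% and 0.0111% of all probe sets were called.

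No call was made for Timp1 with these 3 blockers. It read 8.94 with fulvestrant and 8.67 with raloxifene, above both vehicle arrays, and 8.10 with tamoxifen, between them. The fitted differences were 1.08 (adjusted p = 0.161, limma), 0.81 (adjusted p = 0.757) and 0.24 (adjusted p = 0.995). Adamts1 stood at 9.45, 9.21 and 9.25 in the same order, above vehicle without a call. In the fit of fulvestrant against vehicle 9 of 10 skeletal muscle markers were called higher, with a fitted median of 2.06 and a plain one of 0.71, and their part was not tested. The call of Mmp12 with fulvestrant was lost without vehicle replicate 1 (1.32, adjusted p = 0.051), and without the raw-file code term Timp1 was called there too and Mmp12 was called with raloxifene.

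The labels used here give no dose for a blocker, so no blocker was tested against another. Side by side, the plain differences from vehicle were 0.94, 1.57, 1.23 and 0.65 for Mmp12, 0.69, 0.89, 0.61 and 0.05 for Timp1, and 0.61, 0.54, 0.29 and 0.34 for Adamts1, with acolbifene, fulvestrant, raloxifene and tamoxifen in that order; the acolbifene arrays lay on the vehicle side of the spike levels and the others did not. The macrophage marker sum was 35046 with fulvestrant, 31345 with raloxifene and 31642 with tamoxifen, against 31283 and 31548 with vehicle. The fibroblast sum was 80756 with fulvestrant, 70969 with raloxifene and 72452 with tamoxifen, against 69840 and 72468. The neutrophil sum was 3059, 3174 and 3000, against 2829 and 2672. The part of these cells in the Mmp12 and Timp1 readings was not tested. Tnc, which rose with acolbifene, also rose with fulvestrant, by 1.49 (adjusted p = 0.00587, limma).

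With E2 present, the blockers divided the members in another way. Adamts1 read 10.07 with E2+fulvestrant, 9.73 with E2+raloxifene and 10.05 with E2+tamoxifen, between the vehicle and E2 levels, while both E2+acolbifene arrays (9.29 and 9.24) lay below all 3. Against vehicle Adamts1 rose with E2+fulvestrant by 1.31 ± 0.18 (adjusted p = 0.0362, limma) and with E2+tamoxifen by 1.29 ± 0.18 (adjusted p = 0.0461), the 1 called member of 10 in each, against 0.111% and 0.0844% of all probe sets. With E2+raloxifene its difference was 0.97 (adjusted p = 0.208), and there Mmp12 was the 1 called member, against 0.0666% of all probe sets. Mmp12 read 9.004 with E2+raloxifene and rose by 1.24 ± 0.16 against vehicle (adjusted p = 0.0433), compared with readings of 7.85 with E2+fulvestrant and 8.00 with E2+tamoxifen.

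Each of these 3 calls depended on single arrays. The Adamts1 call with E2+fulvestrant was lost without either vehicle array or either E2+acolbifene array, replicate 1 or 2 of each (adjusted p 0.0743 to 0.141, limma). That of Adamts1 with E2+tamoxifen (0.0517 to 0.184) and that of Mmp12 with E2+raloxifene (0.0844 to 0.164) were lost without any 1 of the vehicle, acolbifene or E2+acolbifene arrays, replicate 1 or 2 of each. Among markers, 5 of 10 skeletal muscle genes were called higher and Ngp lower with E2+fulvestrant against vehicle, and Ngp, S100a8 and S100a9, neutrophil genes, lower with E2+tamoxifen, while the macrophage sum with E2+raloxifene was 35659 against 31283 and 31548. On the E2+fulvestrant array itself the skeletal muscle median lay at -0.07 from vehicle, with a sum of 10761 against 11353 and 11516. The fitted values pass through the E2 pair, whose skeletal muscle medians were -0.91 and 0.46. The part of all these markers was not tested. Leaving out an array that is no part of a contrast changes only the spread estimated for it.

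Against E2, comparisons that rest on E2 array 1 alone within the raw-file code, Mmp12 rose with E2+raloxifene by 1.31 ± 0.12 (adjusted p = 0.00781, limma), from 7.69 on that E2 array to 9.004, and it kept this call in all 13 alternatives run. None of these left out that E2 array or the E2+raloxifene array. Mmp12 was the 1 called member of 10, against 0.0955% of all probe sets. Timp1 differed there by 0.92 (adjusted p = 0.0982), reading 8.89 against 7.97 on E2 array 1. Tnc rose in the same comparison by 0.93 (adjusted p = 0.0336). On the E2+raloxifene array the macrophage sum was 35659 against 27948 on E2 array 1 (median difference 0.35, 11 of 12 positive, none called) and the fibroblast sum 81970 against 66523, while Acta1 fell and all 10 skeletal muscle markers were lower (sum 3943 against 6612). The part of these cells in the Mmp12 rise was not tested. E2+fulvestrant and E2+tamoxifen gave 0 calls among the members against E2 by limma, with 0 and 2 at an unadjusted p under 0.05, where 0.0222% and 0.0133% of all probe sets were called. For Adamts1 the differences from E2 were -0.23 (interval -0.53 to 0.07) with fulvestrant, -0.58 (-0.88 to -0.28, adjusted p = 0.282) with raloxifene and -0.26 (-0.56 to 0.04) with tamoxifen.

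Each E2+blocker array was finally set against the array of its own blocker, 1 array against 1. With fulvestrant, E2 brought Mmp12 down from 9.13 to 7.85, a fall of 1.29 ± 0.12 (adjusted p = 0.00325, limma), and Timp1 from 8.94 to 7.92, a fall of 1.02 ± 0.15 (adjusted p = 0.0274), both called in all 14 alternatives run. None of these left out either array of the pair, so the difference hardly moved (-1.31 to -1.27 for Mmp12, -1.04 to -1.01 for Timp1). Adamts5 went from 10.61 to 9.88 and fell by 0.74 ± 0.12 (adjusted p = 0.0491). These 3 of 10 members stood against 0.384% of all probe sets. In the same pair Tnfaip6 fell by 1.04 and Tnc by 0.96, and the macrophage marker sum went from 35046 to 28190 and the fibroblast sum from 80756 to 67971, with none of their markers called. Of 10 skeletal muscle markers 6 fell (median -0.81, sum 18657 to 10761). The part of these cells in the result was not tested. The Adamts5 call was lost without any 1 of the vehicle, acolbifene or E2+acolbifene arrays, replicate 1 or 2 of each (adjusted p 0.0816 to 0.0976), after median centring (-0.72, 0.0554) and without the term for the raw-file code (-0.74, 0.0551).

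With raloxifene the readings did not come down: Mmp12 was 8.80 without and 9.004 with E2 (difference 0.20, interval -0.08 to 0.48), and Timp1 was 8.67 and 8.89 (0.22, interval -0.12 to 0.56). There 0 of the 10 members passed by limma, with 1 at an unadjusted p under 0.05, against 0.0333% of all probe sets. With tamoxifen 0 passed as well, with 4 at an unadjusted p under 0.05, against 0.18% of all probe sets. Adamts1 differed there by 0.79 (adjusted p = 0.0713), Adamts5 by -0.62 (adjusted p = 0.128) and Mmp3 by -0.47 (adjusted p = 0.301). Adamts5, the aggrecanase that fell with E2 alone, differed by -0.53 without a blocker, -0.40 with acolbifene, -0.74 with fulvestrant, -0.62 with tamoxifen and -0.05 with raloxifene (interval -0.33 to 0.23). Whether the E2 effect differed among these blockers was not tested, since their doses are not given here.

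Mmp12 and Timp1 were highest on the same 5 arrays (both acolbifene arrays, fulvestrant, raloxifene and E2+raloxifene). There Mmp12 read 8.46 to 9.13 and Timp1 8.64 to 8.94. On the other 9 arrays Mmp12 read 7.50 to 8.21 and Timp1 7.71 to 8.16. These 2 sets were drawn from the readings, so their lack of overlap was fixed in advance. For Mmp12 they are not set apart by a clear gap. Its step from 8.21 to 8.46 was about as wide as that from 8.54 to 8.80 within the higher set. No correlation is given for the pair because the arrays share groups and are not independent.

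**Figure D5:**
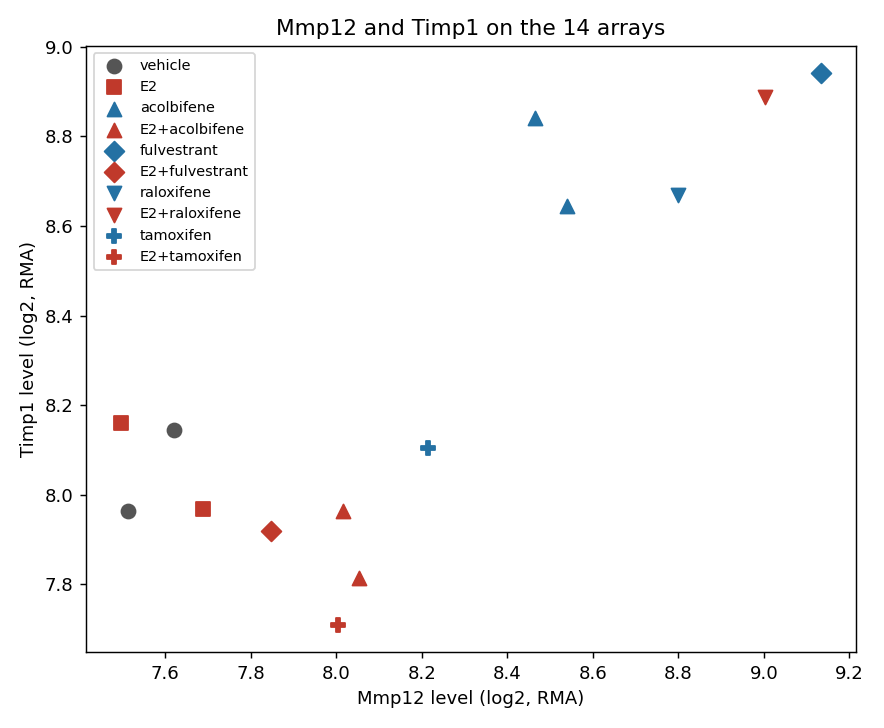
Mmp12 level (horizontal axis, log2) against Timp1 level (vertical axis, log2) on the 14 arrays, with colour and marker by treatment group. The acolbifene, fulvestrant, raloxifene and E2+raloxifene arrays lie at the upper right, with Timp1 at 8.64 or more, and the other 9 at the lower left.

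Among 13313 genes that were not dim, the 3 with the profile most like a member over the 14 arrays, which share groups and so are not independent, were found for Mmp12, Adamts1 and Timp1. For Mmp12 and Timp1 the correlation also rests on the distance between the higher and lower sets of arrays and serves only to rank genes. For Mmp12 they were Col12a1, a fibril-associated collagen (Pearson r = 0.942), Slc16a3, a lactate transporter (0.918), and Clec4d, a myeloid lectin (0.917). For Adamts1 they were Mgat5, an enzyme of N-glycan branching (0.978), Ubxn7, an adaptor of the p97 ATPase (0.963), and Ccl12, a chemokine (0.961). For Timp1 they were Col5a2, a chain of collagen V (0.980), Fstl1, a secreted glycoprotein (0.978), and Lox, which cross-links collagen and elastin (0.976).

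The other inhibitors and proteases moved little. Timp2 read 12.61 to 13.03 over the 14 arrays and Timp3, the inhibitor held in the matrix, 11.39 to 11.84, and neither chosen probe set passed in any of the 18 comparisons. Adamts9 (9.59 to 10.04) and Adamts4 (7.63 to 8.30) did not pass in any either, apart from the dimmer Adamts4 probe set described above. Another Timp2 probe set fell by 0.42 between acolbifene and E2+acolbifene (adjusted p = 0.0395, limma). Mmp2 (11.99 to 12.49) and Mmp3 (9.26 to 9.99) were each highest on the acolbifene arrays and lowest on the E2+tamoxifen array, and Mmp2 passed only between acolbifene and E2+acolbifene.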

How the data were processed

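The deposited log2 values of 14 arrays of pooled mouse mammary gland were used, made by the authors with RMA per the submitters' processing notes (its version is not given in the sources used here). This method subtracts background, equalizes quantiles across arrays and gives 1 value per probe set, which compresses weak signals. The design text names Murine U74Av2 arrays, but the probe set IDs are those of Mouse Genome 430 2.0. After 64 control probe sets were left out 45037 were tested. A single symbol was annotated for 34945, several for 932 and none here for 9160. Gene IDs of all 10 members matched the RefSeq table.

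The tests used lmFit and eBayes of limma 3.58.1 (R 4.3.3), with Benjamini-Hochberg adjustment across the 45037 probe sets and a threshold of 0.05. The 6 comparisons of replicated groups used their 8 arrays with no other term (4 residual degrees of freedom), and the 12 comparisons with a single array used all 14 arrays with a term for the raw-file code (3). Intervals are 95%. Recovery of known changes was checked on simulated arrays for E2 against vehicle only. The simulation held no difference between raw-file codes, and for the 14-array fit it only counted signs. Precision is limited by how few arrays there are.

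The 10 members and the genes of the lists that passed were named, with other probe sets of a member beside the one with the highest mean. Members and lists were chosen with earlier results of these data known. Alternatives were the replicate number as a block, a term for the raw-file code or none, quantile normalization, median centring, leaving out dim probe sets, an intensity trend in the spread, the probe set with the largest change, and each replicate left out. Deviations of same-numbered arrays from their group means correlated at -0.12 to 0.12, so the numbers were not treated as pairs.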

Additional observations from a re-analysis of the deposited data

Results flagged for a closer look

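The E2 effect differed with and without acolbifene for 3 members in a test of the difference itself (limma, interaction term over 8 arrays). With acolbifene the effect of E2 on Adamts1, a versican-cleaving protease, was lower by 1.73 on the log2 scale (-1.73, adjusted p = 0.000307), that on the inhibitor Timp1 was lower by 0.86 (-0.86, adjusted p = 0.0186), and that on Mmp3 (stromelysin-1) was lower by 0.54 (-0.54, adjusted p = 0.0424). For Adamts1 the 2 effects were 1.47 and -0.26, and for Mmp3 0.06 and -0.47. The call was kept in all 16 alternatives for Adamts1, in 12 for Timp1 and in 5 for Mmp3. Of these 8 arrays only those of E2 had low spikes, so that split and the interaction cannot be told apart.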

How the results depend on the processing

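Of the 23 called results of members 7 were called in each alternative run: Adamts1 for E2 against vehicle, E2+acolbifene against E2 and the interaction, Mmp12 for acolbifene against vehicle, E2+raloxifene against E2 and E2+fulvestrant against fulvestrant, and Timp1 for the last. No alternative left out the single array of fulvestrant, raloxifene or tamoxifen, alone or with E2. Calls that rest on such arrays were therefore not tried without them. A further 28 results that were not called were called in some alternative. Over all 180 results of members, 43 took another sign in some alternative, none of them a called result and each at most 0.17 in size. Among the results called in some alternative Timp2 for E2 against vehicle did so, from 0.03 to -0.43 with the probe set of largest change, and over the arrays left out in turn it ran from -0.048 (E2 replicate 2) over -0.036 (vehicle replicate 1) to 0.109 (E2 replicate 1). Calls over all 45037 probe sets moved between the alternatives too. With the intensity trend they went from 377 to 1733 for E2+acolbifene against vehicle and from 2011 to 4176 for the interaction. After quantile normalization they went from 4142 to 1141 for E2+acolbifene against acolbifene. The changes in members called are therefore no result about the members alone. Numbers of members called that moved by over 1.5 times were as follows. With the intensity trend they were 4 for E2+acolbifene against vehicle and E2+raloxifene against E2, 5 for the interaction, 3 for fulvestrant or E2+raloxifene against vehicle and E2+tamoxifen against tamoxifen, 1 for raloxifene and 2 for E2+tamoxifen against vehicle, and 6 for E2+fulvestrant against fulvestrant. With no raw-file term they were 2 for fulvestrant, 1 for raloxifene, and 3 for E2+raloxifene and for E2+tamoxifen against vehicle, and 2 for E2+raloxifene against E2. With the code as a term they were 1 for E2 against vehicle, and E2+acolbifene gave 1 against vehicle and 1 against E2. After quantile normalization they were 1 for E2+acolbifene against E2, against acolbifene, and for E2+tamoxifen against tamoxifen, and 0 for E2+raloxifene against vehicle. Without dim probe sets they were 2 for E2+acolbifene against vehicle and E2+raloxifene against E2 and 1 for E2+tamoxifen against tamoxifen. After median centring they were 1 for E2+acolbifene and 0 for E2+tamoxifen against vehicle, and with the probe set of largest change 4 for E2. With the replicate number as a block, which is no established pairing here, E2+acolbifene against E2 gave 1, and Mmp3 in the interaction and Mmp12 against E2 lost their calls (adjusted p = 0.0518 and 0.0517). With each replicate left out in turn the number was 1 to 2 for E2, 1 to 3 for acolbifene and 0 to 1 for E2+acolbifene against vehicle, 1 to 2 for E2+acolbifene against E2, 0 to 5 against acolbifene, 1 to 2 for the interaction, 0 to 1 for fulvestrant and E2+fulvestrant against vehicle, and 0 for E2+raloxifene and E2+tamoxifen against vehicle. Members apart from vehicle numbered 3 at a margin of 0 (6.76% of all genes) and 0 at a margin of 0.5 (0.0275%). The cause of these changes was not tested, and each fit with an array left out also had fewer arrays. Without an E2 array the single-array groups could not be compared with vehicle, nor with E2 without E2 replicate 1.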
